A study of Mus musculus with 6 samples.

Results

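The ligands Bmp2, Bmp4, Bmp5 and Bmp7 of the bone morphogenetic protein (BMP) family and 6 genes known as transcriptional targets of BMP signalling, Id1, Id2, Id3, Id4, Msx1 and Msx2, were followed in mouse embryoid body cells sorted by nuclear redox state. They were chosen by name, and all 10 are among the 31265 genes of the deposited table. BMP ligands are secreted dimers that bind type I and type II receptor kinases, which phosphorylate Smad1, Smad5 and Smad9. These enter the nucleus with Smad4 and switch on Id and Msx genes. In the mouse embryo around gastrulation BMP signals come from extraembryonic tissues and mesoderm, and in embryonic stem cells Id proteins, induced by BMP, hold back neural differentiation.

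The cells were clonal wild-type E14Tg2a mouse embryonic stem cells that carried the glutathione redox sensor Grx1-roGFP2 in the nucleus, a fluorescent protein whose excitation changes with its oxidation. All were grown with serum, LIF and the 2i inhibitors, then differentiated as hanging-drop embryoid bodies without LIF or 2i for 5 days. Live cells were sorted into oxidized (D5_ox, the 10% with the most oxidized sensor) and reduced (D5_red, the 10% with the most reduced sensor), each from 3 populations named A, B and C. This gave 3 oxidized and 3 reduced poly(A) RNA libraries. What separates the populations from each other is not stated in the labels, and the p-values therefore cover only the spread seen among them, which may be technical. The study set these sorts side by side to learn whether redox state goes with cell fate choice, and the BMP genes are read here from that contrast.

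Values are the authors' FPKM, fragment counts divided by transcript length and library depth, so levels of different genes can be set side by side. The spacing of low values put the depth at an estimated 11.9 to 16.1 M fragments for the oxidized libraries and 12.6 to 18.1 M for the reduced ones. A single fragment on a transcript of 1 kilobase was thus worth 0.0552 to 0.0837 FPKM. The oxidized libraries A and B stood apart from the other 4 at the rRNA locus CT010467, which had 1798 FPKM (0.516% of the FPKM sum) in oxidized A and 2357 FPKM (0.724%) in oxidized B. It had 52117 FPKM (14.6%) in oxidized C and 41528 to 45736 FPKM (11.9% to 12.3%) in the reduced libraries. As FPKM is relative to all fragments, the share of this locus also scales every other gene. Mitochondrially encoded mRNAs were likewise most abundant in oxidized A and B, with sums of 7348 and 5160 FPKM, against 2994 FPKM in oxidized C and 2324 to 3917 FPKM in the reduced libraries. In bulk RNA of sorted cells, fewer cells that express a gene and less RNA per cell cannot be told apart.

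No member of the group passed the test over all genes. With limma on log2(FPKM + 1), 97 of 12191 tested genes (0.796%) had an adjusted p under 0.05, 63 higher (0.517%) and 34 lower (0.279%) in oxidized cells, and 0 of the 10 members were among them. Median-ratio scaling gave 57 higher and 50 lower genes, and quantile normalization 54 higher and 51 lower. All 10 members had passed the filter of a mean of at least 1 FPKM. At an unadjusted p under 0.05 there were 5 of the 10 members, Id2, Bmp5, Bmp2, Msx1 and Bmp7, all with higher values in oxidized cells, where 19.4% of all tested genes reached it and 13.5% did so with a higher value. Under median-ratio scaling, under quantile normalization, and with each library rescaled without the rRNA locus, 3 of the 10 reached it, Id2, Bmp5 and Bmp2. For 5 members, Id2, Bmp5, Bmp2, Bmp7 and Id3, every oxidized library lay above every reduced one, which was so for 16.2% of all tested genes. The reverse held for 0 members and for 8.81% of all tested genes. Within each population 7 of the 10 were higher in the oxidized than in the reduced cells, all but Bmp4, Id1 and Id4, as were 26.9% of tested genes, and 1, Id4, was lower in each, as were 16.4%. Overlap and direction within populations were counted on the FPKM as deposited and were not recounted under the other scalings, where narrow gaps need not hold. Median-ratio scaling divides by 1.04 in oxidized A and 0.970 in reduced A, where Bmp7 had 7.61 and 7.13 FPKM. It divides by 1.11 in oxidized B and 0.983 in reduced C, where Id3 had 219 and 217 FPKM. After these divisions neither gap remains, so Bmp7 and Id3 overlap between the groups under that scaling. Bmp7 is then also no longer higher in the oxidized cells of population A. The median log2 difference, oxidized minus reduced, was 0.42 over the members and 0.08 over all tested genes. As the members were picked with earlier results of these data known, these counts describe them and are no test of the group.

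**Figure D1:**
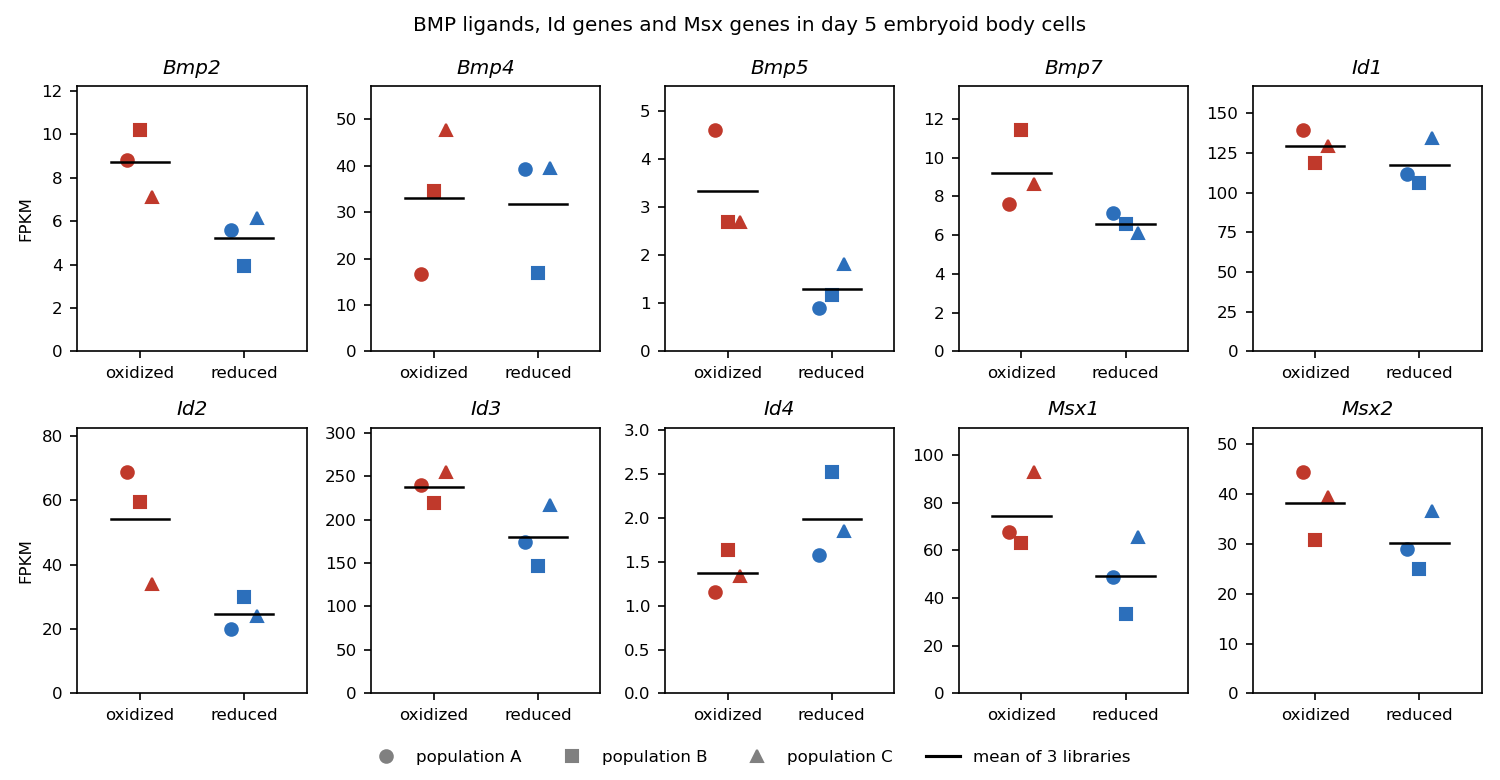
FPKM (linear axis from 0) of each gene in the 3 oxidized and 3 reduced libraries, with the population as the marker shape and the mean of 3 libraries as a line. In Id2 the oxidized libraries A and B, at 68.7 and 59.6 FPKM, stand well above oxidized C at 33.9 FPKM and the reduced libraries at 19.9 to 29.9 FPKM, whereas Bmp4 and Id1 overlap between the groups.

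Promoters are shown for the Id and ligand genes with the largest positive differences, Id2 and Bmp5, and for Id4, the member with a negative difference. They are taken from RefSeq (GRCm38.p6), run 5′ to 3′ from 250 bases before to 50 bases after the annotated start, and lie at chr12:25096043-25096342 (minus strand), chr9:75775115-75775414 (plus strand) and chr13:48260866-48261165 (plus strand). Capitals mark GGCGCC, a GC-rich sequence bound by BMP Smads, searched on both strands, on which it reads the same.
Id2: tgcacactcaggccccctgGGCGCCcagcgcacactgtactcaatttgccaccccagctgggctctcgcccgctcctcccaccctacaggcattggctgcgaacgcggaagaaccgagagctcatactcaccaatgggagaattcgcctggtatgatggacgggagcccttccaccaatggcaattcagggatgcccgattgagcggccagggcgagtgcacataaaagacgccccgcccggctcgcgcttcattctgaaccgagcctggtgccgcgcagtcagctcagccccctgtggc
Id4: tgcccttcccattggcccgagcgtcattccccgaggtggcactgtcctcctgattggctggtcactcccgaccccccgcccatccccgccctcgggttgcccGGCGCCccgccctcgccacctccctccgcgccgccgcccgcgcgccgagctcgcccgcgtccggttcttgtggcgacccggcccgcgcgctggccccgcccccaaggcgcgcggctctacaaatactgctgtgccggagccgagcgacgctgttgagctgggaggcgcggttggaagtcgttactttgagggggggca
Bmp5: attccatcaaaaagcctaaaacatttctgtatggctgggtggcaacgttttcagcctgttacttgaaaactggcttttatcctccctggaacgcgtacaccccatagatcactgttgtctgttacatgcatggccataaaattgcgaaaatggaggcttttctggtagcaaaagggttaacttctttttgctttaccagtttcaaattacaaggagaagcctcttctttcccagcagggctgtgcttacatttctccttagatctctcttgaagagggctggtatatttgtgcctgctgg
The sequence GGCGCC occurred in 11.9% of all 32851 promoters of this length. Among the members, 7 had an entry (Bmp4, Bmp5, Id2, Id3, Id4, Msx1 and Msx2), and Id2 and Id4 held the sequence once each. The differences of these 2 genes had opposite signs. The Bmp5 window held none and had 43.3% G and C, against 63.3% for Id2 and 73.3% for Id4. A match is a run of letters in this window, not a shown binding site.

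Of the ligands, Bmp4, which patterns mesoderm and induces germ cells in the early mouse embryo (chr14:46383520-46390669, GRCm38), was the most abundant. It was at 16.7, 34.7 and 47.7 FPKM in the oxidized A, B and C libraries, against 39.3, 16.9 and 39.4 FPKM in the same order in the reduced ones. Both groups spanned nearly the same range, and the populations went in different directions, lower in the oxidized cells of A and higher in those of B and C. The means were 33.0 ± 15.5 FPKM in the oxidized and 31.9 ± 13.0 FPKM in the reduced cells (SD, n = 3 each), with a log2 difference of 0.03 (SE 0.42, limma adjusted p = 0.979). The 95% interval of that difference, -0.92 to 0.98, reaches about as far below 0 as above it, and median-ratio scaling gave -0.08, quantile normalization -0.05 and rescaling without the rRNA locus -0.02.

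Bmp2, which is made in visceral endoderm and later in cardiac mesoderm of the embryo (chr2:133552159-133562885), was at 8.83, 10.2 and 7.11 FPKM in the oxidized A, B and C libraries, against 5.60, 3.93 and 6.14 FPKM in the reduced ones. The groups did not overlap, and the gap between the lowest oxidized and the highest reduced library was small, both of them from population C. Means were 8.71 ± 1.54 FPKM in the oxidized and 5.23 ± 1.15 FPKM in the reduced cells (SD, n = 3 each; log2 difference 0.65, SE 0.20, limma adjusted p = 0.147). Without oxidized C the log2 difference of Bmp2 was 0.77 (limma adjusted p = 0.0466).

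Bmp5, a ligand of mesoderm and skeleton that overlaps in function with Bmp7 in the mouse embryo (chr9:75775364-75900310), was the least abundant ligand. Its level was 4.60, 2.70 and 2.69 FPKM in the oxidized A, B and C libraries, against 0.902, 1.18 and 1.83 FPKM in the reduced ones. Oxidized A stood above the rest, and the groups did not overlap. Means were 3.33 ± 1.10 FPKM in the oxidized and 1.30 ± 0.474 FPKM in the reduced cells (SD, n = 3 each; log2 difference 0.90, SE 0.23, 95% interval 0.38 to 1.43, limma adjusted p = 0.112). The oxidized to reduced FPKM ratio was 5.10 in population A, 2.29 in B and 1.47 in C. Without oxidized C the log2 difference of Bmp5 was 1.00 (limma adjusted p = 0.0356). Its 50-base stretches were searched in either orientation, and 46.0% of them also occur in transcripts of 6 other genes, so its value is uncertain. Its exons overlap the opposite-strand gene Gm26903, whose mean was 0.0149 FPKM, and no source read here says whether strand entered the counting.

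Bmp7, expressed in node, notochord and many epithelia (chr2:172868012-172940321), was at 7.61, 11.4 and 8.65 FPKM in the oxidized A, B and C libraries, against 7.13, 6.58 and 6.09 FPKM in the reduced ones. The groups did not overlap, but the lowest oxidized and the highest reduced library, both from population A, nearly met. Means were 9.23 ± 1.97 FPKM in the oxidized and 6.60 ± 0.517 FPKM in the reduced cells (SD, n = 3 each; log2 difference 0.41, SE 0.18, limma adjusted p = 0.252). Summed over the 4 ligands, the level was 37.8, 59.0 and 66.1 FPKM in the oxidized A, B and C libraries, against 52.9, 28.6 and 53.5 FPKM in the reduced ones. Bmp4 made up 44.3% to 72.1% of that sum in oxidized and 59.1% to 74.2% in reduced cells, so the sum followed Bmp4 and the groups overlapped.

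Among the Id genes, which encode helix-loop-helix proteins without a DNA-binding region that tie up E proteins, Id2 had the largest difference of all members on the log2(FPKM + 1) scale, while on log2(FPKM + 0.1) that of Bmp5 was larger, 1.30 against 1.09. Id2 (chr12:25093799-25097140) was at 68.7, 59.6 and 33.9 FPKM in the oxidized A, B and C libraries, against 19.9, 29.9 and 24.1 FPKM in the reduced ones. Oxidized A and B were about as high as each other, oxidized C was much closer to the reduced range, and the groups did not overlap. Means were 54.1 ± 18.1 FPKM in the oxidized and 24.6 ± 5.01 FPKM in the reduced cells (SD, n = 3 each; log2 difference 1.06, SE 0.27, 95% interval 0.44 to 1.68, limma adjusted p = 0.111). The oxidized to reduced FPKM ratio of Id2 was 3.45 in population A, 1.99 in B and 1.40 in C. Without oxidized C the log2 difference was 1.36 (limma adjusted p = 0.00537), and without oxidized A and B together it was 0.46 (limma adjusted p = 0.514).

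Id3 (chr4:136143497-136145755) and Id1 (chr2:152736251-152737410), which in mouse embryonic stem cells mediate the block of neural fate by BMP, were the most abundant members. Id3 was at 240.1, 219 and 254 FPKM in the oxidized A, B and C libraries, against 174, 147 and 217 FPKM in the reduced ones. The groups of Id3 met without overlapping, oxidized B against reduced C. Means were 238 ± 18.0 FPKM in the oxidized and 179 ± 35.4 FPKM in the reduced cells (SD, n = 3 each; log2 difference 0.42, SE 0.19, limma adjusted p = 0.262). Id1 was at 139, 119 and 129.5 FPKM in the oxidized A, B and C libraries, against 112, 106 and 134 FPKM in the reduced ones, and the groups overlapped. Its log2 difference was 0.14 (SE 0.16, 95% interval -0.23 to 0.51, limma adjusted p = 0.658), a narrower interval than that of Bmp4.

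Id4, which takes part in neural differentiation (chr13:48261228-48266026), was the scarcest member and the one with a negative difference. It was at 1.16, 1.64 and 1.33 FPKM in the oxidized A, B and C libraries, against 1.58, 2.52 and 1.85 FPKM in the reduced ones. Within each population the oxidized cells had less Id4, but oxidized B lay above reduced A, so the groups overlapped (log2 difference -0.32, SE 0.18, limma adjusted p = 0.363).

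The make-up of the Id transcripts was also set side by side. Id1 supplied 31.0%, 29.8% and 30.9% of the summed Id FPKM in the oxidized A, B and C libraries, against 36.3%, 37.2% and 35.6% in the reduced ones. These Id1 shares did not overlap between the groups, and within a library such shares do not depend on its scaling. Id2 supplied 15.3%, 14.9% and 8.08% in the oxidized A, B and C libraries, against 6.46%, 10.5% and 6.39% in the reduced ones, where oxidized C lay below reduced B. The FPKM ratio of Id1 to Id3 was 0.580, 0.544 and 0.509 in the oxidized A, B and C libraries, against 0.641, 0.722 and 0.619 in the reduced ones, without overlap. A two-sided exact permutation test of its log2 gave p = 0.1, the smallest that 3 against 3 libraries allow. For the ratio of Id2 to Id1 the same exact permutation test gave p = 0.2, with 0.493, 0.502 and 0.261 in the oxidized A, B and C libraries, against 0.178, 0.282 and 0.180 in the reduced ones. These are 2 of 6 ratios computed, shown with their values known, and with 3 libraries a group none of the 6 could pass a threshold of 0.05.

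**Figure D2:**
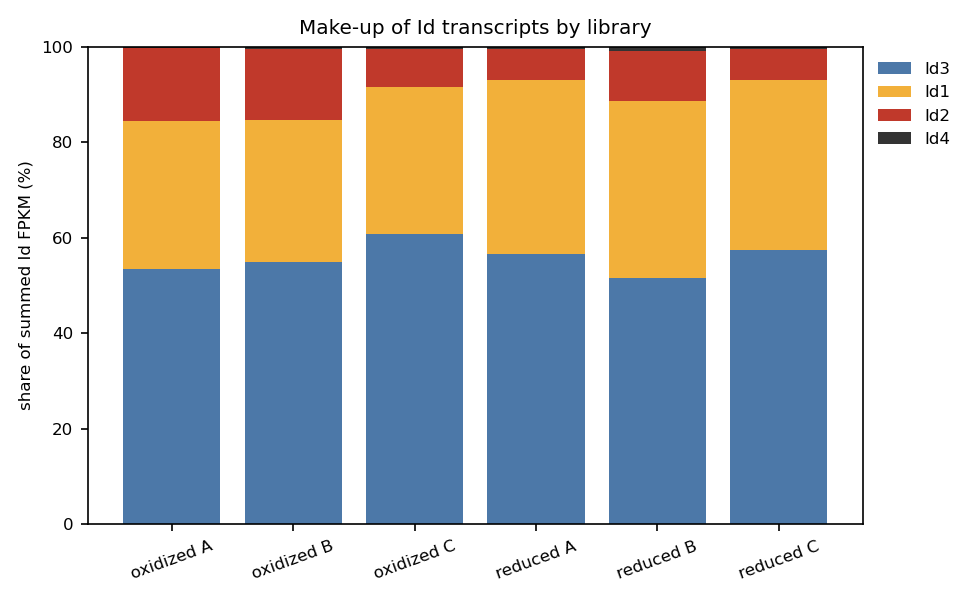
Share of the summed Id FPKM (%) from Id3, Id1, Id2 and Id4 in each library, as stacked bars that start at 0. The Id1 segment is 29.8% to 31.0% in the oxidized and 35.6% to 37.2% in the reduced libraries, and the Id2 segment is widest in oxidized A and B.

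Of the Msx genes, homeodomain repressors induced by BMP in mesoderm and dorsal ectoderm, Msx1 (chr5:37820485-37824583) was the more abundant in every library. Msx1 was at 67.5, 63.1 and 92.8 FPKM in the oxidized A, B and C libraries, against 48.9, 33.4 and 65.8 FPKM in the reduced ones. In both groups population C was highest and B lowest, and reduced C lay above oxidized B. Means were 74.5 ± 16.0 FPKM in the oxidized and 49.3 ± 16.2 FPKM in the reduced cells (SD, n = 3 each; log2 difference 0.62, SE 0.26, limma adjusted p = 0.241). With the population as a block the SE of Msx1 was 0.17 and its adjusted p 0.159 in limma. Msx2 (chr13:53466884-53473074) was at 44.3, 30.8 and 39.4 FPKM in the oxidized A, B and C libraries, against 29.0, 24.8 and 36.5 FPKM in the reduced ones. Its groups overlapped as well, with a higher value in the oxidized cells of each population (log2 difference 0.33, SE 0.20, limma adjusted p = 0.383).

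**Figure D3:**
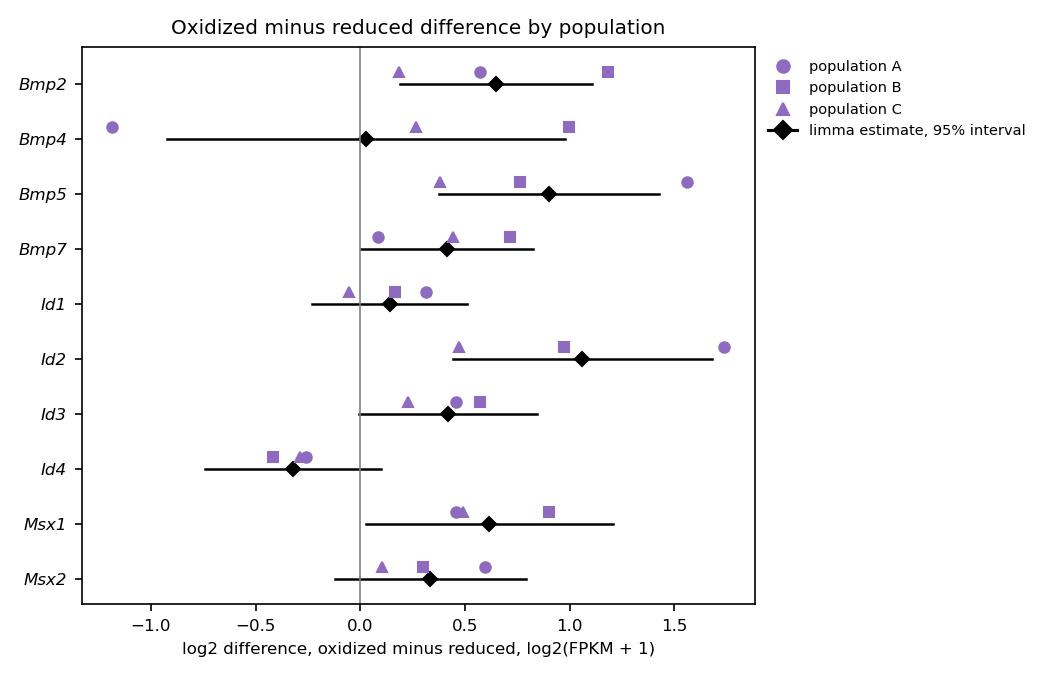
Oxidized minus reduced difference in log2(FPKM + 1) for each gene, per population (shapes) and as the limma estimate with its 95% interval (diamond and line). All but Bmp4, Id1 and Id4 lie to the right of 0 in all 3 populations. Id4 lies to the left in all 3, and Bmp4 ranges from -1.19 in population A to 1.00 in B.

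Over all 6 libraries the members ranked from Id3 (mean 209 FPKM) through Id1 (123), Msx1 (61.9), Id2 (39.3), Msx2 (34.1), Bmp4 (32.4), Bmp7 (7.91), Bmp2 (6.97) and Bmp5 (2.32) to Id4 (1.68). Id3 exceeded Id1, Id1 exceeded Msx1, Bmp4 exceeded Bmp7 and Bmp2 exceeded Bmp5 in 6 of 6 libraries. The order of Id2, Msx2 and Bmp4 was not fixed, since Id2 exceeded Msx2 in 3 and Msx2 exceeded Bmp4 in 2 of 6 libraries. Nor was that of Bmp7 and Bmp2 or of Bmp5 and Id4, which held in 4 and 3 libraries. The genes whose profile over the 6 libraries was most like that of Id1, among 6540 genes averaging 5 FPKM or more whose symbols are not provisional clone or model names, were Ndufa1 (r = 0.991), Rpl38-ps2 (r = 0.990) and Mrpl55 (r = 0.990). For Bmp4 they were Tsen54 (r = 0.986), Alkbh4 (r = 0.978) and Cyhr1 (r = 0.977). With 6 points and so many genes, such values describe these libraries and carry no test.

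The rest of the BMP pathway was read from 8 lists of genes, fixed with earlier results of these data known. Over all tested genes 0.517% were called higher in oxidized cells, 19.4% had an unadjusted limma p under 0.05 and 16.2% were higher without overlap. Of 66 listed genes, counted once per list, 40 passed the filter and 2 were called, both higher in oxidized cells. Those were Fstl1, which encodes a secreted follistatin-like glycoprotein, and Atoh8, a helix-loop-helix gene induced by BMP. Atoh8 was at 7.35, 8.34 and 6.90 FPKM in the oxidized A, B and C libraries, against 2.54, 1.59 and 3.63 FPKM in the reduced ones (log2 difference 1.29, SE 0.22, limma adjusted p = 0.0449). Fstl1 was at 27.4, 26.0 and 23.6 FPKM in the oxidized A, B and C libraries, against 12.4, 13.3 and 13.7 FPKM in the reduced ones (log2 difference 0.91, SE 0.14, limma adjusted p = 0.0365). Neither gene's groups overlapped, and although oxidized C had the lowest oxidized value of both, it lay well above every reduced library. With the population as a block, 4 of all tested genes were called, and Atoh8 and Fstl1 each had a limma adjusted p of 0.0902. With 1 library left out, both were called without oxidized C, Atoh8 also without reduced C, and neither in the other cases, with limma adjusted p-values between 0.0628 and 0.205.

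Of the secreted antagonists and modulators 8 of 16 passed the filter, with a median log2 difference of 0.39, and 1 was called. Noggin (Nog), which binds BMP ligands and keeps them from their receptors, was at 11.1, 7.19 and 6.92 FPKM in the oxidized A, B and C libraries, against 3.64, 2.97 and 3.86 FPKM in the reduced ones. The groups were far apart, but the gene missed the threshold (log2 difference 1.04, SE 0.20, limma adjusted p = 0.0615, and 0.0123 without oxidized C). The chordin protease Bmp1, which is no BMP ligand despite its name, was at 4.05 ± 0.941 FPKM in the oxidized and 2.06 ± 0.662 FPKM in the reduced cells (SD, n = 3 each, limma adjusted p = 0.141). The other members of its list, Tll1 and Tll2, did not pass the filter.

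Among 10 other genes that BMP induces, 9 passed the filter, with a median of 0.31, and Atoh8 was the 1 called. Hand1, a transcription factor of extraembryonic and lateral mesoderm, was at 188, 154 and 127 FPKM in the oxidized A, B and C libraries, against 81.8, 62.9 and 97.6 FPKM in the reduced ones (log2 difference 0.94, SE 0.22, limma adjusted p = 0.0877, and 0.0165 without oxidized C). Gata3 was at 8.68, 11.3 and 8.33 FPKM in the oxidized A, B and C libraries, against 4.24, 3.70 and 5.64 FPKM in the reduced ones (log2 difference 0.92, SE 0.19, limma adjusted p = 0.0752, and 0.0197 without oxidized C). Both had groups that did not overlap.

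Of 8 intracellular and membrane inhibitors, all tested, limma called 0 (1 at an unadjusted p under 0.05), and the median was 0.13. Smad6, an inhibitory Smad that BMP itself induces, was at 26.9, 29.7 and 31.8 FPKM in the oxidized A, B and C libraries, against 18.1, 14.2 and 26.0 FPKM in the reduced ones. The groups came close only at oxidized A and reduced C (log2 difference 0.61, SE 0.22, limma adjusted p = 0.182). Its promoter was picked to show GTCTAGAC (capitals), a palindrome to which Smads bind and which reads the same on both strands. The sequence was found in 0.213% of promoters and in none of the 7 member promoters, and it was not tallied over the other pathway genes. Here too a match is a run of letters, not a shown binding site. The window printed lies at chr9:64022010-64022309 on the minus strand of GRCm38.p6.
Smad6: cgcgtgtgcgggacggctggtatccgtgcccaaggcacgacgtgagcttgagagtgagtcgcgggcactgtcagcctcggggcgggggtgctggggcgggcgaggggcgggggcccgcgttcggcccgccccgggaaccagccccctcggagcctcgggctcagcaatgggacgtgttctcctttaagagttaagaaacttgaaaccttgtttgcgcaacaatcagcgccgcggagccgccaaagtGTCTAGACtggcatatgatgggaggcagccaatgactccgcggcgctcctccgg
Bambi, a pseudoreceptor that blocks BMP receptors, was the most abundant of these inhibitors, at 61.2 ± 15.5 FPKM in the oxidized and 44.4 ± 9.26 FPKM in the reduced cells (SD, n = 3 each, limma adjusted p = 0.320). Smurf2, a ubiquitin ligase that marks Smads for degradation, was at 4.23, 4.49 and 10.5 FPKM in the oxidized A, B and C libraries, against 10.0, 9.71 and 8.99 FPKM in the reduced ones. Oxidized A and B were low while oxidized C was above the reduced range (log2 difference -0.62, limma adjusted p = 0.282; -0.98 and 0.00859 without oxidized C; 0.12 and 0.851 without oxidized A and B).

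Receptors and Smads held no called gene. Of 11 receptors and co-receptors 7 passed the filter, limma called 0 (2 at an unadjusted p under 0.05), and the median was 0.18. The type II receptor Acvr2b was the most abundant receptor, at 27.4 ± 5.59 FPKM in the oxidized and 19.9 ± 2.54 FPKM in the reduced cells (SD, n = 3 each, limma adjusted p = 0.256), whereas the dedicated type II receptor gene Bmpr2 had only 0.758 ± 0.412 FPKM in the oxidized and 0.782 ± 0.0877 FPKM in the reduced cells. The type I receptor Acvrl1 was at 3.64 ± 0.346 FPKM in the oxidized and 2.13 ± 0.901 FPKM in the reduced cells (limma adjusted p = 0.205). Of the 4 Smads 3 were tested, and limma called 0 (1 at an unadjusted p under 0.05). The shared partner Smad4 was at 44.3 ± 7.95 FPKM in the oxidized and 32.4 ± 2.11 FPKM in the reduced cells (limma adjusted p = 0.225), and the BMP Smad Smad1 at 15.4 ± 1.45 FPKM in the oxidized and 13.0 ± 0.757 FPKM in the reduced cells (limma adjusted p = 0.439). Of the other BMP-type ligands Gdf3 alone passed the filter, at 26.0 ± 7.57 FPKM in the oxidized and 33.6 ± 5.92 FPKM in the reduced cells (limma adjusted p = 0.411), and Bmp3 and Gdf7 were listed at 0 throughout.

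The E proteins, the partners that Id proteins hold away from DNA, all 3 tested, had a median of 0.54, and limma called 0 (3 at an unadjusted p under 0.05). Tcf3, which encodes E12 and E47, was at 47.8, 64.0 and 51.0 FPKM in the oxidized A, B and C libraries, against 39.2, 30.2 and 37.7 FPKM in the reduced ones (log2 difference 0.59, SE 0.18, limma adjusted p = 0.142). Tcf4 was at 1.86 ± 0.292 FPKM in the oxidized and 0.963 ± 0.100 FPKM in the reduced cells (SD, n = 3 each; log2 difference 0.54, limma adjusted p = 0.144). The groups of all 3 E protein genes did not overlap, with higher values in oxidized cells, which was so for 16.2% of all tested genes. Of the 3, Tcf4 passed the filter of a mean of 1 FPKM only through the oxidized cells.

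**Figure D4:**
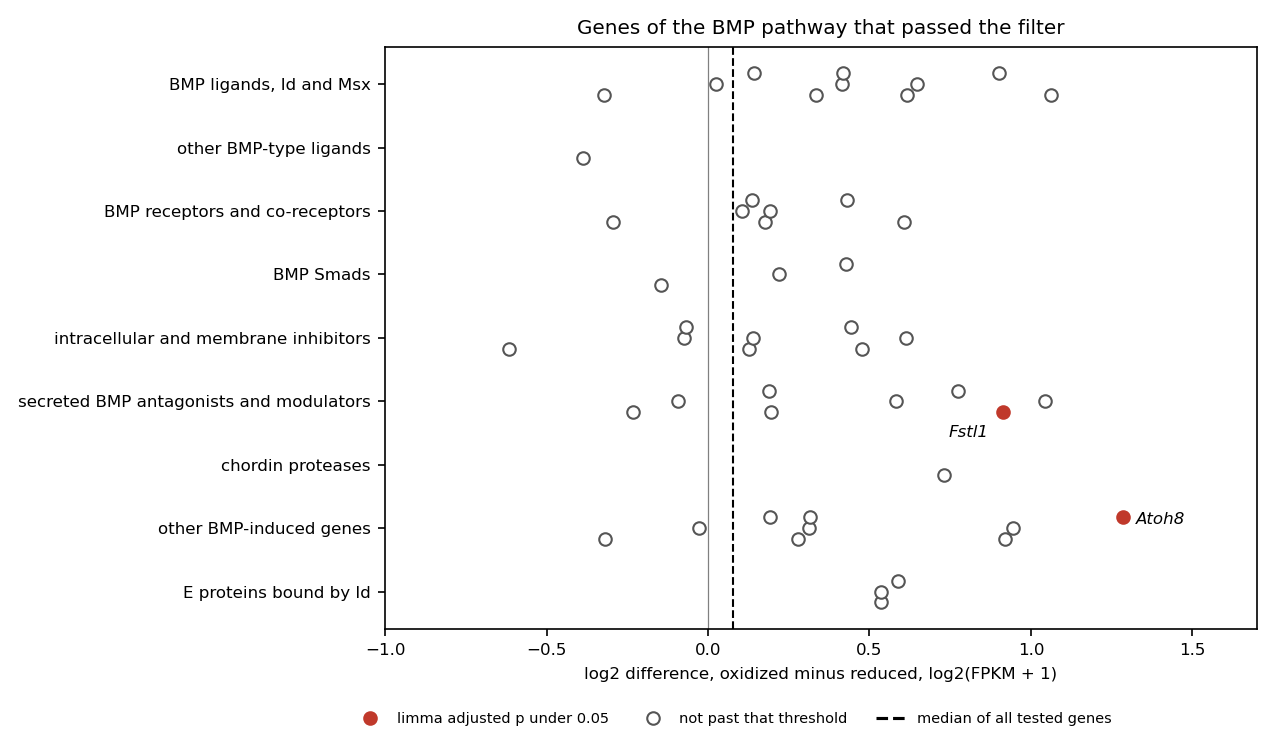
Oxidized minus reduced difference in log2(FPKM + 1) for the 10 BMP ligand, Id and Msx genes (top row) and for every tested gene of each pathway list, 1 point a gene. Filled points passed limma's adjusted p of 0.05, which Fstl1 and Atoh8 did, and the dashed line is the median of all tested genes at 0.08.

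Markers of other cell types that the sorted cells could hold were read in the same way. Among all tested genes 16.2% were higher in oxidized cells without overlap and 19.4% had an unadjusted limma p under 0.05. Of 12 visceral endoderm markers 8 were tested, 7 of these had higher, non-overlapping values in oxidized cells, and limma called 0, with 7 at an unadjusted p under 0.05. The filter takes the mean over all 6 libraries. Ttr and Foxa2 passed it only through the oxidized cells, as their reduced means were 0.351 and 0.619 FPKM. The 12 markers summed to 31.4 to 39.3 FPKM in the oxidized and 11.5 to 17.4 FPKM in the reduced cells. Gata4 and Gata6 had the highest group means of this list, at 9.66 and 7.44 FPKM in the oxidized and 5.27 and 3.11 FPKM in the reduced cells. Ttr was at 1.25 to 3.05 FPKM in the oxidized and 0.236 to 0.447 FPKM in the reduced cells, and Afp below 0.7 FPKM in every library. The 8 lateral and extraembryonic mesoderm markers, which include Bmp4 and Hand1, summed to 338 to 424 FPKM in the oxidized and 205 to 327 FPKM in the reduced cells, with 2 not overlapping, 3 at an unadjusted p under 0.05 and 0 called by limma, and the defining marker Hand2 was at 5.12 to 11.2 FPKM in the oxidized and 2.42 to 5.14 FPKM in the reduced cells. Of these 8 markers 6 had a positive difference, while Foxf1 and Tbx20 did not. Hand1 and Pmp22 together made up most of the sum in every library. The 9 fibroblast and mesenchyme markers summed to 184 to 283 FPKM in the oxidized and 114 to 160.3 FPKM in the reduced cells, and of 8 tested 2, Col3a1 and Fbln1, were called higher (limma adjusted p = 0.0380 and 0.0347, and 0.0613 and 0.0875 with the population as a block). Their defining markers were Col1a1, at 8.88 to 22.9 FPKM in the oxidized and 5.81 to 11.2 FPKM in the reduced cells, and Col1a2, at 1.24 to 2.47 FPKM in the oxidized and 0.406 to 0.833 FPKM in the reduced cells. Col1a2 also passed the filter only through the oxidized cells. Mmp2 and Vim together made up most of the sum of this list in every library.

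Other marker lists had lower or overlapping sums. The 6 pluripotency markers summed to 721 to 1833 FPKM in the oxidized and 2043 to 2237 FPKM in the reduced cells, the lowest sum being that of oxidized C. Dppa5a made up most of that sum in every library, at 477 to 1390 FPKM in the oxidized and 1583 to 1702 FPKM in the reduced cells. None of the 6 was called by limma, and 3 had an unadjusted p under 0.05. Lower values without overlap in oxidized cells were seen for 3 of the 6, and for 8.81% of all tested genes. The defining marker Pou5f1 was at 73.0 to 151 FPKM in the oxidized and 168 to 199 FPKM in the reduced cells. Nanog, the other one, was at 11.5 to 49.0 FPKM in the oxidized and 18.2 to 27.2 FPKM in the reduced cells. Of 7 primitive streak markers, all tested, 3 were lower in oxidized cells without overlap and 3 had an unadjusted limma p under 0.05. The 7 summed to 53.1 to 70.3 FPKM in the oxidized and 93.6 to 111 FPKM in the reduced cells. Of these T was called (limma adjusted p = 0.0158, and 0.0601 with the population as a block), at 3.47 to 5.59 FPKM in the oxidized and 14.5 to 15.0 FPKM in the reduced cells, and Mixl1 was at 1.80 to 6.48 FPKM in the oxidized and 6.37 to 7.50 FPKM in the reduced cells. Trophoblast markers overlapped in sum, at 837 to 1189 FPKM in the oxidized and 688 to 1068 FPKM in the reduced cells. Krt8 and Krt18 together made up most of that sum in every library. Of 7 tested genes 2, Hand1 and Gata3, were higher in oxidized cells without overlap, as were 16.2% of all tested genes. Both are also among the other BMP-induced genes described above. Elf5 was listed at 0 in every oxidized library and did not exceed 0.0380 FPKM in a reduced one, and Eomes, also a streak marker, was at 2.67 to 4.69 FPKM in the oxidized and 2.60 to 5.01 FPKM in the reduced cells. Neuroectoderm markers overlapped in sum too, at 12.7 to 31.1 FPKM in the oxidized and 11.7 to 14.5 FPKM in the reduced cells. Of 7 markers 4 were tested, all with a positive difference and 2, Nes and Pou3f1, without overlap, and limma called 0 (1 at an unadjusted p under 0.05). Of these 4, Hes5 passed the filter only through the oxidized cells, with means of 1.31 FPKM in the oxidized and 0.809 FPKM in the reduced cells. Nes was at 2.96 to 6.43 FPKM in the oxidized and 1.90 to 2.23 FPKM in the reduced cells, and Pou3f1 at 5.34 to 13.0 FPKM in the oxidized and 4.85 to 5.07 FPKM in the reduced cells. The defining markers did not pass the filter: Sox1 was at 0.289 to 1.13 FPKM in the oxidized and 0.114 to 0.313 FPKM in the reduced cells and Pax6 at most 0.449 FPKM in any library. The part of these cell types in the values of the BMP genes was not tested.

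The calls depended on the libraries used, and the count was highest without oxidized C. There 1185 of all tested genes (9.72%) were called, and 3 of the 10 members, Id2, Bmp5 and Bmp2, were among them. That fit sets oxidized A and B, with the rRNA locus at 1798 and 2357 FPKM, against reduced libraries with 41528 to 45736 FPKM. With each library rescaled without the locus, an alternative added after seeing the data, the same libraries gave 952 called genes (7.81%), Id2 (log2 difference 1.27, limma adjusted p = 0.00586) and Bmp5 (0.93, limma adjusted p = 0.0401) among them, and Bmp2 missed the threshold (0.69, limma adjusted p = 0.0797). With all 6 libraries that rescaling called 0 members, with Id2 at 1.01 (limma adjusted p = 0.0945). The part of the locus in these values beyond its effect on scaling was not tested. Leaving out any other single library, or oxidized A and B together, called 0 members. By the authors' deposited table, 605 of 31265 genes (1.94%) had a q-value under 0.05 and a change of at least 2-fold, 1.23% with higher and 0.704% with lower values in oxidized cells. Id2 and Bmp5 were the members among them, with the authors' deposited folds of 2.19 (q = 0.0114) for Id2 and 2.56 (q = 0.0184) for Bmp5, both higher in oxidized cells. The test behind the authors' deposited table is not named in the file header.

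**Figure D5:**
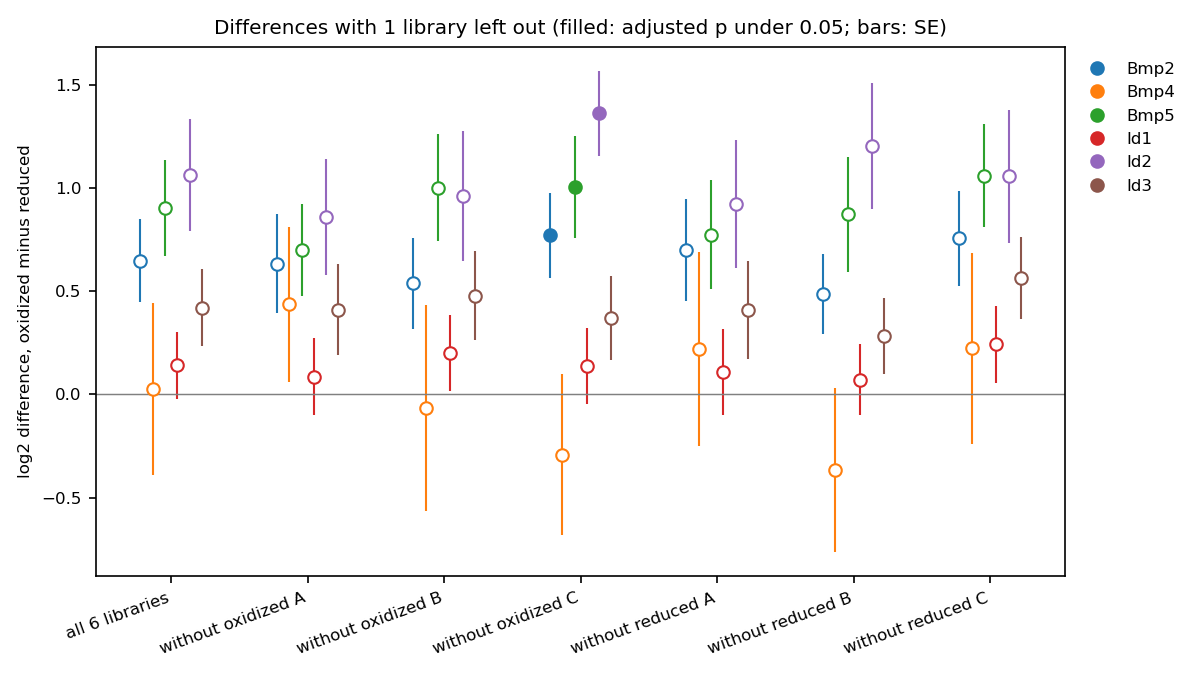
Log2 difference, oxidized minus reduced, with its SE for 6 of the genes in all 6 libraries and with each library left out in turn. Filled points have a limma adjusted p under 0.05, which Id2, Bmp5 and Bmp2 reached without oxidized C and in no other of these fits.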

How the data were processed

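Poly(A) RNA of 3 oxidized and 3 reduced cell sorts was sequenced as stranded paired-end libraries, per the labels' protocols. The authors deposited FPKM values for 31265 genes, per the file headers, with their own ratio (fold) column, which equals the ratio of mean FPKM, its log2, and p-value and q-value columns from a test that the headers do not name. The submitters' processing notes list edgeR, StringTie, HISAT2, FastQC and cutadapt, with mm10 as the build and no versions. Versions, annotation and the use of strand in counting are not stated there, in the labels or in the headers. FPKM values are not counts, and reads could not be recovered: 11.9% to 17.8% of low values in single-transcript genes fell within 0.02 of a whole step, so the depths are estimates.

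The 12191 genes that averaged 1 FPKM or more were fitted as log2(FPKM + 1) on the group alone with limma 3.58.1 in R 4.3.3 (eBayes with a mean-variance trend), with Benjamini-Hochberg adjustment over all of them, two-sided. The code was tested on simulated data. Log2 differences understate the change of low genes. A gene with a mean under 1 FPKM in 1 group can pass the filter through the other group alone. Positions and overlaps come from GENCODE vM21 (GRCm38, 31182 of the gene IDs matched), and promoters from RefSeq. Alternatives were a pseudocount of 0.1, a filter at a mean of 5 FPKM, none, median-ratio and quantile scaling, no trend, robust estimation, the population as a block, a 2-fold minimum, leaving out each library, and leaving out oxidized A and B together. Added after seeing the data was a rescaling of each library to the same FPKM sum without the rRNA locus, with and without oxidized C. The members and lists were chosen with earlier results of these data known.

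Both sorts were taken from populations A, B and C, as the series' design text has it. A shared letter is therefore read as a pair in the values per population and in the alternative with a block. The main fit, on the group alone, does not use this pairing. As a check, the 2 libraries of population A deviated from their group means with a correlation of -0.06, those of B with 0.07 and those of C with 0.20. Across letters the values ran from -0.17 to 0.13, with oxidized A against reduced B at 0.13 and oxidized B against reduced A at 0.12, so the pairing rests on the design text and not on these values. The genes named besides the members are, for each pathway list, the 2 tested genes with the smallest p, the most abundant one and every called one. To these were added the 3 genes most like Id1 and Bmp4 and the first 2 markers of each marker list. Col3a1, Fbln1, Nes, Pou3f1, Bmpr1a, Bmpr2, Tll1, Tll2, Bmp3, Gdf7, Dppa5a, Pmp22, Foxf1, Tbx20, Mmp2, Vim, Krt8, Krt18, Foxa2, Gata4, Gata6 and Hes5 were named after their values were seen.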

Additional observations from a re-analysis of the deposited data

How the results depend on the processing

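The count of 97 called genes was 1 without a filter, 4 with the population as a block, 4 without oxidized A and B together, and between 3 and 1185 with 1 library left out. It was 3 without oxidized A, 4 without oxidized B, 4 without reduced A, 3 without reduced B and 64 without reduced C. Rescaling without the rRNA locus, added after seeing the data, gave 102, and 952 when oxidized C was also left out. The number of members called was 0 under every alternative but those without oxidized C, so that it ranged from 0 to 3 with 1 library left out and was 2 with that rescaling. The block changed no member's call. Of 178 alternative values of the members' log2 differences 166 kept direction and side of the threshold, 5 passed it without oxidized C, and 7, all of Bmp4, changed sign. Changing only the filter, the trend, the robust estimation, the block or the 2-fold minimum leaves a log2 difference as it was. Direction could not change under those alternatives, which are part of the 178, and the 2-fold minimum could add no call. Bmp4 was at -0.075 with median-ratio scaling, -0.046 with quantile normalization, -0.023 with the rescaling, -0.38 with the rescaling and without oxidized C, 0.66 without oxidized A and B, and between -0.37 and 0.44 with 1 library left out. Among the other named genes Smurf2 changed sign, to 0.12 without oxidized A and B. Atoh8 and Fstl1 lost their calls in 9 of 18 alternatives each, with adjusted p-values up to 0.207 and 0.205. The cause was not tested. A mean of at least 5 FPKM left Bmp5 and Id4 untested. Depth limits the scarcest members, Id4 and Bmp5, most. Without oxidized A and B, the lone oxidized library is assumed to vary like the reduced ones.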
